A study of Homo sapiens with 6 samples.

Results

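The 9 genes described here build the MHC class I antigen presentation machinery. They are the rows of the deposited expression table named HLA-B, HLA-C, HLA-E, HLA-F, B2M, TAP1, TAP2, TAPBP and NLRC5, 9 of the 26364 gene symbols in it, and the rule that picks them uses names only. RNAseq was performed in A673/TR/shEF cells, a derivative of the Ewing sarcoma cell line A673 that carries a doxycycline-inducible shRNA against the EWSR1::FLI1 fusion transcript and was grown with blasticidin and zeocin. The EWSR1::FLI1 high group had 3 samples labelled untreated, and the EWSR1::FLI1 low group had 3 samples given 1 µg/mL doxycycline for 72 h, so the drug and the knockdown cannot be told apart. The samples come from 1 parental line, and the sources call the samples of a group both clones and experiments, so p-values measure the spread between these samples only. The comparison made throughout is EWSR1::FLI1 low against EWSR1::FLI1 high, which asks how expression differs when the fusion is lowered.

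MHC class I molecules show peptides from inside the cell to CD8+ T cells and to receptors of natural killer cells. A polymorphic heavy chain pairs with beta-2 microglobulin in the endoplasmic reticulum, the TAP1 and TAP2 transporter brings in peptides cut by the proteasome, and tapasin, the product of TAPBP, holds the empty heavy chain at the transporter until a peptide fits. NLRC5 acts with the RFX complex at the shared promoter elements of these genes, and interferon signalling adds IRF1 and other factors. Ewing sarcoma is known for low surface amounts of these molecules.

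The knockdown was seen in each library. The FPKM values of FLI1, the 3' partner of the fusion, were 11.3, 12.7 and 14.2 in EWSR1::FLI1 high, and 2.91, 4.29 and 3.68 in EWSR1::FLI1 low (log2 fold change -1.57, adjusted p = 0.000676, limma). Here and throughout, 3 values of a group stand in the order of replicates 1 to 3. FPKM is a level of fragments per length of transcript, scaled between libraries. Reads on genes, recovered from the FPKM values, numbered 6980361 to 16658933 per library. The deposited values followed a scaling factor per library that was not in proportion to these reads. It was 0.951 for 6980361 reads in EWSR1::FLI1 low replicate 1, and 1.12 for 10264638 reads in EWSR1::FLI1 high replicate 1. On that scaling EWSR1::FLI1 low replicate 1 stood apart: its mean FPKM over all genes was 9.71, against 12.7 to 13.9 in the other 5 libraries. The Ewing sarcoma markers were CD99, NKX2-2, NR0B1, STEAP1 and the fusion partners FLI1 and EWSR1. Of these, 6 of 6 had lower values in every EWSR1::FLI1 low library, where 23.6% of all genes tested did. The test described below called 4 of them lower, where 3.37% of all genes tested were.

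None of the members passed the test, although most heavy chain genes had their highest values in EWSR1::FLI1 low cells. The test was limma on log2(FPKM + 1), over the 15504 genes whose mean FPKM reached 0.5, with p-values adjusted by Benjamini and Hochberg and a limit of 0.01. There, 0 of the 7 members tested were called higher, where 4.51% of all genes tested were, and 0 were called lower, where 3.37% were. At an unadjusted p under 0.05, 2 members were higher in EWSR1::FLI1 low, HLA-B and HLA-E, and 15.6% of all genes were. The limma-voom test on the recovered reads called 0 members. Its adjusted p was 0.0385 for HLA-E, 0.0470 for HLA-B and 0.0495 for TAP1, and 0.113 or more for the other members tested. On simulated data, the main limma test called 0% of log2 changes of 1 and 8% of -1. It called 70% of changes of 2 and 66% of -2, so a missing call does not show that a gene was unchanged. HLA-F and NLRC5 lay below the filter on low values and were not tested. The median log2 fold change was 0.42 over the 7 members tested and -0.05 over all genes tested. EWSR1::FLI1 low replicate 1 had the lowest value of its group for 9 of 9 members, and for 56.4% of all genes tested. When every library was brought to a common sum of FPKM, it was lowest for 6 of 9 members and for 27.9% of all genes. On that scale it was the highest of its group for 50.7% of all genes, against 25.2% as deposited. In bulk RNA, fewer cells expressing a gene and less RNA per cell cannot be told apart.

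**Figure D1:**
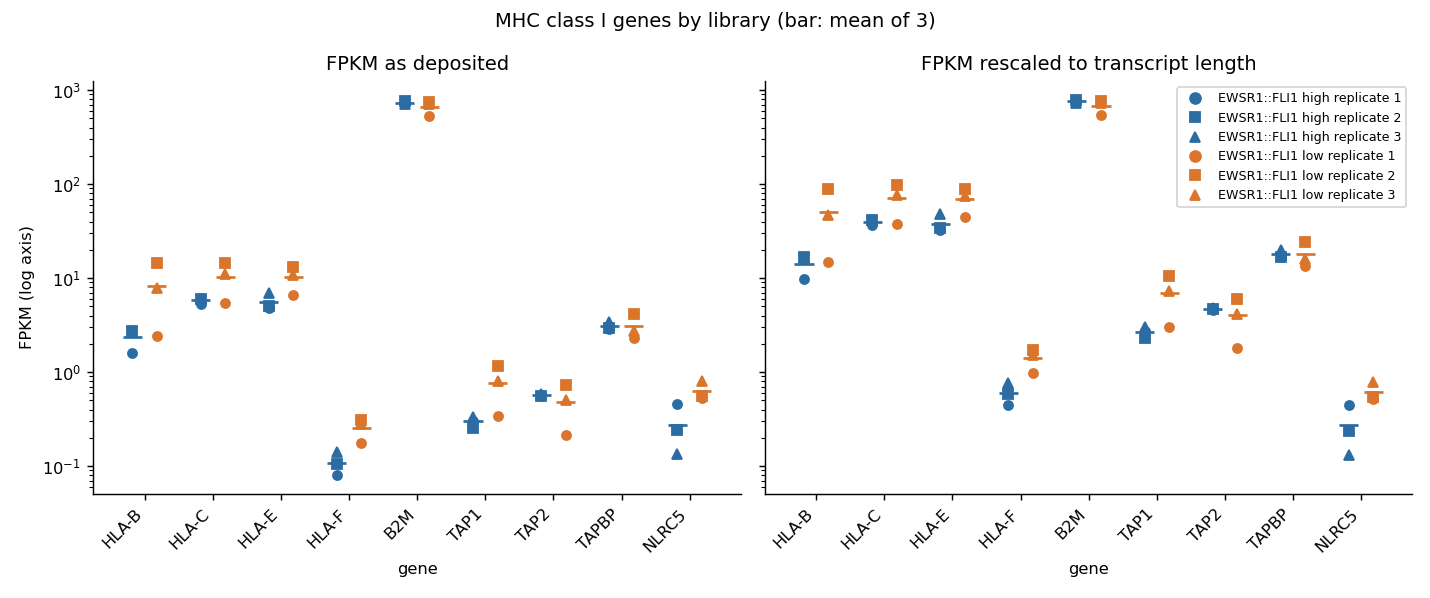
FPKM of the 9 genes in each of the 6 libraries on a log axis, as deposited (left) and rescaled to transcript length (right), with blue for EWSR1::FLI1 high, orange for EWSR1::FLI1 low, a symbol for each replicate number and a bar at the mean of 3. The orange circle, replicate 1, is the lowest EWSR1::FLI1 low point for every gene, and B2M stands far above the other genes on both scales.

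HLA-B, on chromosome 6 (GRCh37, 31321649 to 31334844, minus strand), encodes a classical heavy chain that presents peptides to CD8+ T cells. Its FPKM values were 1.61, 2.75 and 2.68 in EWSR1::FLI1 high, and 2.44, 14.5 and 7.78 in EWSR1::FLI1 low, from 159 to 1144 reads. Replicates 2 and 3 of EWSR1::FLI1 low were above every EWSR1::FLI1 high library, while replicate 1 lay within their range. The means were 2.35 ± 0.643 and 8.26 ± 6.06 (SD, n = 3 each). On the log2(FPKM + 1) scale the difference was 1.24 with a standard error of 0.46 (95% interval 0.19 to 2.29, adjusted p = 0.0945, limma). It was the largest of the 7 members tested. The span of HLA-B overlaps the transcribed pseudogene DHFRP2 on the same strand over 6203 bases, and its part in the reads was not tested.

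HLA-C, the other classical heavy chain among the members and a ligand of natural killer cell receptors, lies on chromosome 6 from 31236526 to 31239907, minus strand. It measured 5.32, 6.03 and 6.06 FPKM in EWSR1::FLI1 high and 5.43, 14.4 and 11.1 FPKM in EWSR1::FLI1 low. Again replicate 1 of EWSR1::FLI1 low sat among the EWSR1::FLI1 high libraries and the other two did not. HLA-C differed by 0.64 on the log2 scale, with a standard error of 0.30 (adjusted p = 0.161, limma).

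The windows upstream of the HLA-B and HLA-C transcripts are printed to show promoter elements that these heavy chain genes have in common. They are the 250 bases before the transcript start in RefSeq (GRCh38.p14, HLA-B chr6:31357180-31357429 and HLA-C chr6:31272093-31272342, both minus strand), 5′ to 3′ on the gene's strand. From left to right the capitals mark a kappaB-like GGGATTCNC, an interferon-response AANNGAAA read on the other strand, a TGACG of the cAMP response element type, and an ATTGG, the CCAAT box on the other strand. Further ATTGG or CCAAT letters are left in lower case.
HLA-B: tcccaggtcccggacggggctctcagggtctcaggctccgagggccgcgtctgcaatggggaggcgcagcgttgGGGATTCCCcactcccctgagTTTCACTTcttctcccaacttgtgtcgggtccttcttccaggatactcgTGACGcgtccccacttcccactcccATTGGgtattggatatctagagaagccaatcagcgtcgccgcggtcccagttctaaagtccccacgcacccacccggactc
HLA-C: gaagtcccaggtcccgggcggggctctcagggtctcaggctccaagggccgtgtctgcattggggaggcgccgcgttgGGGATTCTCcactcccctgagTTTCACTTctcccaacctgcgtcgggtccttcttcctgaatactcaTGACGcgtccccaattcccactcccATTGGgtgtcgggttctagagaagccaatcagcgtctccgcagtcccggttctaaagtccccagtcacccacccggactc

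Both windows held the same elements in the same order, with 20 bases between TGACG and ATTGG. Searched on both strands, TGACG followed by ATTGG after 15 to 25 bases occurred in 0.407% of 35093 RefSeq promoter windows of this length, GGGATTCNC in 0.812%, and AANNGAAA in 20.3%. The kappaB-like match starts 176 bases before the start in HLA-B and 172 bases before it in HLA-C. The letters of the search were chosen with these sequences in view, and a match is a description of letters only. RefSeq windows were at hand for 7 of the 9 members, not for HLA-E and NLRC5.

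HLA-E (chromosome 6, 30457286 to 30461971, plus strand) encodes a non-classical heavy chain that shows leader peptides of other class I chains to the NKG2A receptor. It measured 4.79, 5.02 and 7.0 FPKM in EWSR1::FLI1 high and 6.64, 13.2 and 10.9 FPKM in EWSR1::FLI1 low. The groups overlapped through EWSR1::FLI1 low replicate 1 and EWSR1::FLI1 high replicate 3. HLA-E had the smallest adjusted p of the members tested. It differed by 0.74 on the log2 scale, with a standard error of 0.25 (95% interval 0.16 to 1.31, adjusted p = 0.0729, limma).

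HLA-F (chromosome 6, 29690552 to 29706305, plus strand), a non-classical chain that can reach the surface without peptide, was close to the lower end of detection. It had 7, 7 and 9 reads in EWSR1::FLI1 high and 13, 21 and 36 reads in EWSR1::FLI1 low. In FPKM these were 0.0803, 0.106 and 0.140, against 0.176, 0.308 and 0.278, with every EWSR1::FLI1 low library above every EWSR1::FLI1 high library. HLA-F spans 11928 bases of the antisense gene HLA-F-AS1, which measured 0.124 FPKM or less in every library. The strand setting of the counting is not given in the sources used here. Without the filter on low values, the difference on log2(FPKM + 1) was 0.18 (adjusted p = 0.118, limma), and with a pseudocount of 0.1 in place of 1 it was 0.75.

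B2M (chromosome 15, 45003556 to 45011049, plus strand), the invariant light chain common to every class I molecule, was the most abundant member in all libraries. It measured 728, 766 and 712 FPKM in EWSR1::FLI1 high, and 530, 743 and 709 FPKM in EWSR1::FLI1 low. Only replicate 1 of EWSR1::FLI1 low was below the range of 712 to 766 by more than a few FPKM. The log2 fold change was -0.17 (95% interval -0.53 to 0.19, adjusted p = 0.502, limma).

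The B2M window is printed because it lies on another chromosome and carries the same pair of elements. It covers chr15:44711267-44711516 (plus strand, RefSeq, GRCh38.p14), with overlapping AANNGAAA matches, TGACG, and ATTGG in capitals.
B2M: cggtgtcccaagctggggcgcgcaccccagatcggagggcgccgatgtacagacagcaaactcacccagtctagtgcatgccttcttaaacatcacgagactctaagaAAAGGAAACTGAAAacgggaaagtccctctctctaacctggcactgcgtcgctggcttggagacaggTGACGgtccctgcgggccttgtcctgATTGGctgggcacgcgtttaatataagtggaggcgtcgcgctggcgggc

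In B2M the gap between TGACG and ATTGG is 21 bases, and no GGGATTCNC was found. The AANNGAAA letters were found in a window of each of the 7 members with an entry. The windows of HLA-F, TAP2 and TAPBP, not printed here, held neither GGGATTCNC nor the TGACG and ATTGG pair.

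TAP1 (chromosome 6, 32812986 to 32821593, minus strand) encodes one chain of the peptide transporter. It measured 0.303, 0.256 and 0.337 FPKM in EWSR1::FLI1 high and 0.339, 1.17 and 0.814 FPKM in EWSR1::FLI1 low, from 50 to 311 reads. The groups did not overlap, but EWSR1::FLI1 low replicate 1 exceeded EWSR1::FLI1 high replicate 3 by 0.339 against 0.337 FPKM only. The log2 fold change was 0.42 with a standard error of 0.21 (adjusted p = 0.183, limma). TAP1 overlaps PSMB9 and PSMB8-AS1 on the opposite strand, and the reads of such partners cannot be told apart without strand.

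The upstream TAP1 window (chr6:32853705-32853954, minus strand, RefSeq, GRCh38.p14) is printed beside the heavy chain windows for contrast, with AANNGAAA on the other strand in capitals. It held neither GGGATTCNC nor the TGACG and ATTGG pair.
TAP1: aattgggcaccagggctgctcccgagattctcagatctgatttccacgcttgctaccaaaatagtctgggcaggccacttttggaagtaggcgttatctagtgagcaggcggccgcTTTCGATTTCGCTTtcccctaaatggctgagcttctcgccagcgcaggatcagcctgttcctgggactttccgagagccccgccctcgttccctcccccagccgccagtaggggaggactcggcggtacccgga

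TAP2 (chromosome 6, 32789610 to 32806516, minus strand), the partner chain of the transporter, measured 0.553, 0.560 and 0.579 FPKM in EWSR1::FLI1 high and 0.214, 0.726 and 0.504 FPKM in EWSR1::FLI1 low. The EWSR1::FLI1 high libraries lay close together, and EWSR1::FLI1 low libraries fell on both sides of them. The log2 fold change was -0.09 (95% interval -0.51 to 0.32, adjusted p = 0.765, limma). An annotated gene without a symbol spans TAP2 on the same strand over 16907 bases, so their reads cannot be told apart.

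TAPBP (chromosome 6, 33267471 to 33282061, minus strand) measured 2.86, 2.91 and 3.43 FPKM in EWSR1::FLI1 high and 2.31, 4.18 and 2.72 FPKM in EWSR1::FLI1 low. The group means were 3.07 in both, and the log2 fold change was -0.02 (95% interval -0.47 to 0.42, adjusted p = 0.954, limma).

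NLRC5 (chromosome 16, 57023397 to 57117443, plus strand), the class I transactivator, had the lowest mean of the members on FPKM rescaled to transcript length. It measured 0.454, 0.243 and 0.134 FPKM in EWSR1::FLI1 high and 0.535, 0.562 and 0.802 FPKM in EWSR1::FLI1 low, from 7 to 84 reads. The groups did not overlap, and the EWSR1::FLI1 high libraries themselves spread more than 3-fold. A long noncoding RNA gene on the opposite strand overlaps NLRC5 over 5993 bases, and its reads cannot be told apart without strand. Without the filter on low values, the difference on log2(FPKM + 1) was 0.36 (adjusted p = 0.173, limma), and with a pseudocount of 0.1 in place of 1 it was 1.03.

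Of the 7 members tested, 1, TAP1, had every EWSR1::FLI1 low library above every EWSR1::FLI1 high library, a share near the 17.5% of all genes tested. HLA-F and NLRC5, which are not among the genes tested, did so too. No member had every EWSR1::FLI1 low library below, where 23.6% of all genes did. In an exact permutation test of the FPKM values of a single gene, 3 samples against 3 cannot go below p = 0.1, which these 3 genes reached. Every gene whose groups do not overlap reaches it, so this p-value only restates the lack of overlap. The count depended on how the libraries were scaled. With the FPKM values of each library brought to a common sum, 4 of the 7 members tested, with HLA-B, HLA-C and HLA-E added to TAP1, had groups that did not overlap, and 25.3% of all genes tested did. On that scale HLA-B measured 1.6, 2.68 and 2.44 in EWSR1::FLI1 high and 3.18, 14.3 and 7.21 in EWSR1::FLI1 low, and B2M measured 647 to 745 in EWSR1::FLI1 high and 657 to 731 in EWSR1::FLI1 low.

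The calls turned on EWSR1::FLI1 low replicate 1. Without it, limma called HLA-B (log2 fold change 1.82, adjusted p = 0.00313), HLA-C (1.01, adjusted p = 0.00399) and HLA-E (0.99, adjusted p = 0.00828) higher in EWSR1::FLI1 low, 3 of 7 members, where 9.37% of all genes tested were called higher. With weights for sample quality, in which that library had a weight of 0.172 and EWSR1::FLI1 low replicate 2 had 2.79, limma called 4 of 7 members higher, TAP1 being added, and 16.0% of all genes. The library was singled out by its values, so the fit with all 6 libraries is the one reported.

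**Figure D2:**
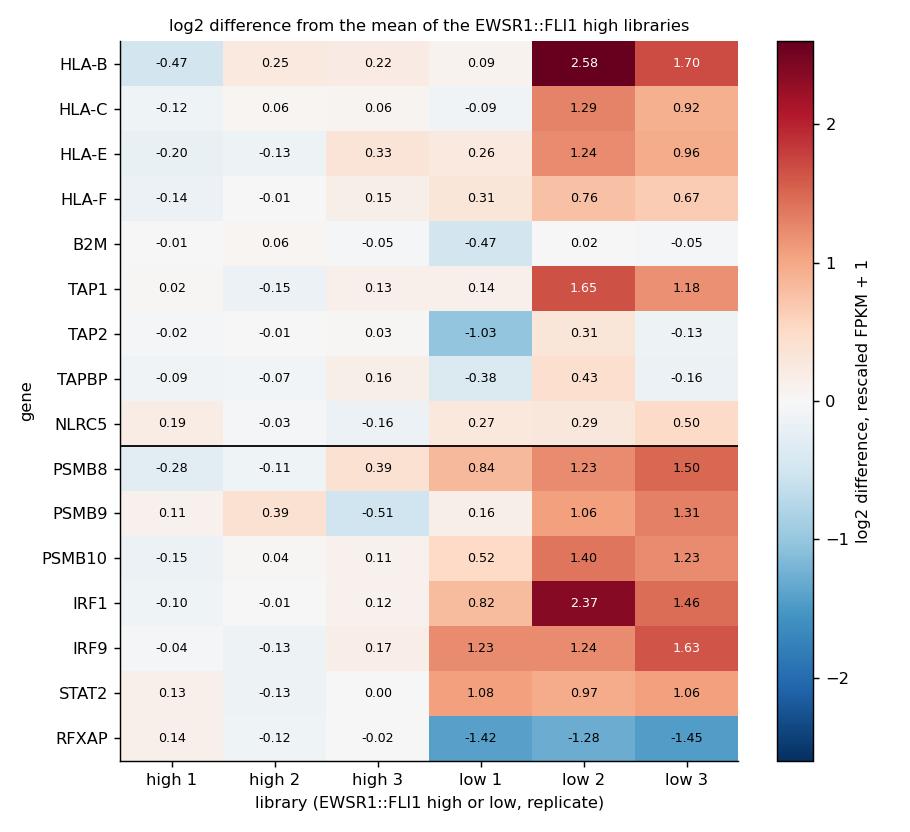
Difference of each library from the mean of the EWSR1::FLI1 high libraries on log2(rescaled FPKM + 1), for the 9 members above the line and for 7 other pathway genes, picked after their values were seen, below it. HLA-B reached 2.58 in EWSR1::FLI1 low replicate 2 and 0.09 in replicate 1, while STAT2, IRF9 and RFXAP had like values in the 3 EWSR1::FLI1 low libraries.

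Levels of different genes can be set side by side only per length, and the lengths behind the deposited FPKM values differed within this gene set. The length that each gene's reads and FPKM imply was compared with the length of its canonical transcript in GENCODE, with the typical gene set to a ratio of 1. For B2M and NLRC5 the ratio was 1.03 and 0.977. For the members in the MHC region of chromosome 6, between 29690552 and 33282061, it was 6.05 for HLA-B, 6.87 for HLA-C, 6.80 for HLA-E, 5.53 for HLA-F, 9.0 for TAP1, 8.33 for TAP2 and 5.83 for TAPBP. The same held across the region: 57 of 59 of its protein-coding genes had a ratio above 4, with a median of 6.78, against 17 of 12345 genes elsewhere, with a median of 1.00. The deposited FPKM values of the 7 members in the region are therefore lower, by that factor, than their transcript lengths would give. Whether the number of reads assigned to genes of this region was affected as well was not tested, so levels and ratios on rescaled FPKM correct the length only.

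**Figure D3:**
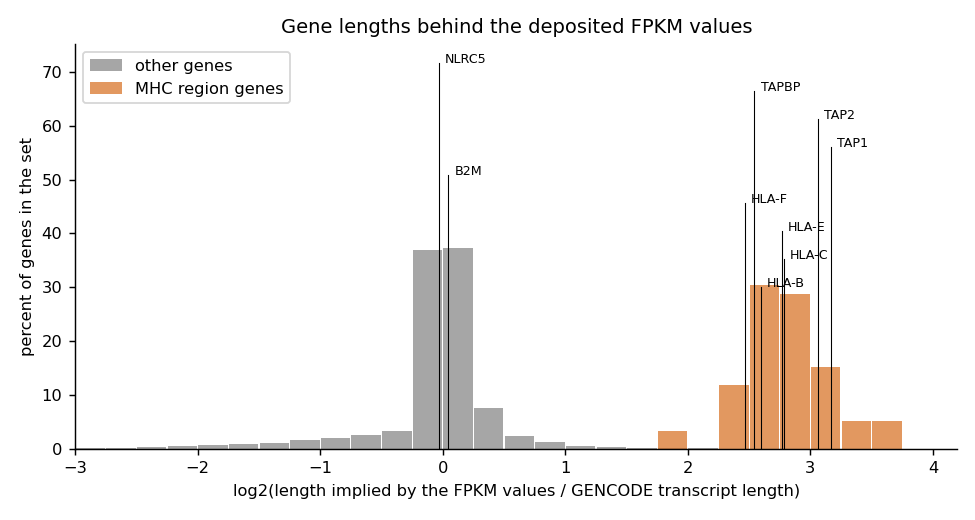
Percent of genes by the log2 ratio of the length implied by the FPKM values to the GENCODE transcript length, for 59 protein-coding genes of the MHC region (orange) and 12345 other genes (grey), with a line at each member. The 7 members in the region lie between ratios of 5.53 and 9.0, and B2M and NLRC5 lie near 1.

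Rescaled to canonical transcript length, the mean levels over the 6 libraries ran from B2M (720 FPKM) through HLA-C (55.4 FPKM), HLA-E (53.9 FPKM), HLA-B (32.1 FPKM), TAPBP (17.9 FPKM), TAP1 (4.83 FPKM) and TAP2 (4.36 FPKM) to HLA-F (1.00 FPKM) and NLRC5 (0.444 FPKM). HLA-C and HLA-E did not differ beyond the spread over libraries (36.6 to 98.9 and 32.6 to 89.8 FPKM), and their ranges overlapped that of HLA-B (9.72 to 88.0 FPKM), which in turn overlapped that of TAPBP. TAP1 and TAP2 overlapped as well, and so did HLA-F and NLRC5. The order differed between the groups for neighbouring pairs. HLA-B was below TAPBP in all EWSR1::FLI1 high libraries and above it in all EWSR1::FLI1 low libraries, with means of 14.2 and 17.9 FPKM in EWSR1::FLI1 high and 49.9 and 17.9 FPKM in EWSR1::FLI1 low. TAP1 was likewise below TAP2 in all EWSR1::FLI1 high libraries (2.69 and 4.70 FPKM) and above it in all EWSR1::FLI1 low libraries (6.96 and 4.01 FPKM). B2M lay above the others, and HLA-F below TAP2, in every library. The rescaling moved HLA-C from above 54.1% to above 90.9% of the genes tested, and TAP1 from above 2.72% to above 43.9%.

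Because 1 is added to each FPKM before the logarithm, the rescaled levels also change the differences. The log2 fold change of TAP1 was 0.99 on rescaled FPKM (adjusted p = 0.0737, limma), against 0.42 as deposited. HLA-F passed the filter on this scale and differed by 0.58 on the log2 scale (adjusted p = 0.0604, limma). HLA-B came to 1.46 (adjusted p = 0.0937, limma), and none of the 8 members tested on rescaled FPKM was called.

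Ratios between members within a library do not depend on how libraries are scaled to each other. The rescaled level of B2M was divided by the sum of the rescaled heavy chains HLA-B, HLA-C, HLA-E and HLA-F. The ratio was 9.47, 8.51 and 6.91 in EWSR1::FLI1 high and 5.56, 2.75 and 3.67 in EWSR1::FLI1 low. Light chain transcript was thus lower relative to these heavy chain transcripts in all EWSR1::FLI1 low libraries, replicate 1 included. The means were 8.29 ± 1.29 and 4.0 ± 1.43 (SD, n = 3 each, two-sided exact permutation p = 0.1, the smallest this design allows).

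The ratio of TAP1 to TAP2, the chains of 1 transporter, was 0.592, 0.493 and 0.629 in EWSR1::FLI1 high and 1.71, 1.74 and 1.74 in EWSR1::FLI1 low. The EWSR1::FLI1 low libraries lay close together on this ratio, although their TAP1 and TAP2 levels differed more than 3-fold. The means were 0.571 ± 0.0699 and 1.73 ± 0.0186 (SD, n = 3 each, two-sided exact permutation p = 0.1). The ratio of HLA-B to HLA-C was 0.266, 0.402 and 0.390 in EWSR1::FLI1 high and 0.397, 0.890 and 0.617 in EWSR1::FLI1 low, and these groups overlapped (exact permutation p = 0.2). These 3 ratios were chosen after the values were seen, and no background over other gene pairs was computed. A ratio shows unequal change and does not say which of its genes changed.

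**Figure D4:**
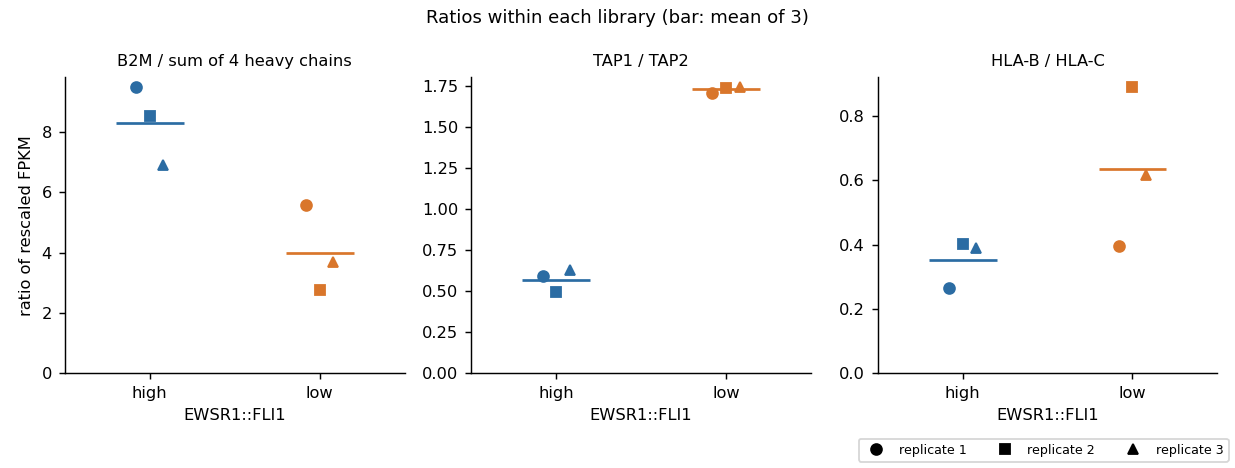
Ratios of rescaled FPKM within each library for B2M to the sum of 4 heavy chains, TAP1 to TAP2 and HLA-B to HLA-C, with each vertical axis starting at 0, a symbol for each replicate number and a bar at the mean of 3. EWSR1::FLI1 high and low libraries are separate for B2M to heavy chains (6.91 to 9.47 against 2.75 to 5.56) and for TAP1 to TAP2 (0.493 to 0.629 against 1.71 to 1.74), and overlap for HLA-B to HLA-C.

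Across the 6 libraries HLA-B, HLA-C, HLA-E and TAP1 had like profiles. On log2(FPKM + 1), Pearson's r was 0.99 for HLA-B with HLA-C, 0.95 for HLA-B with HLA-E and 0.97 for HLA-B with TAP1, and 0.27 for HLA-B with B2M. B2M followed TAP2 instead, with an r of 0.93. These are descriptions over 6 points that share 2 conditions and the low library. The genes most like the mean profile of the 7 members tested were CDK17 (r = 0.999), DDX58, SPSB1, NABP1 and FTH1, and the most opposed were CD226 (r = -0.994), PI15, COL25A1, SMA4 and AGBL3. DDX58, which encodes the RNA sensor RIG-I, measured 8.79, 9.87 and 11 FPKM in EWSR1::FLI1 high and 6.86, 20.1 and 13.1 FPKM in EWSR1::FLI1 low. An r above 0.9 was found for 3.13% of 15497 genes, and none of the 10 genes named was called between the groups.

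Of 52 other genes of the class I pathway, 49 were tested, and 2 were called higher and 2 lower in EWSR1::FLI1 low, shares near the 4.51% and 3.37% of all genes tested, so the calls below are values of single genes. Their median log2 fold change was 0.11, with 32 above 0 and 17 below. The called genes were regulators or class I-like, and none encodes a part of the peptide loading machinery.

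IRF9 and STAT2, which act together in the ISGF3 complex of type I interferon signalling, rose. STAT2 measured 7.12, 5.76 and 6.41 FPKM in EWSR1::FLI1 high and 14.6, 13.4 and 14.5 FPKM in EWSR1::FLI1 low (log2 fold change 1.03, adjusted p = 0.00331, limma). IRF9 measured 4.2, 3.89 and 5.0 FPKM against 11.5, 11.6 and 15.5 FPKM (log2 fold change 1.36, adjusted p = 0.0015, limma). For both, EWSR1::FLI1 low replicate 1 was as high as another library of its group or nearly so, unlike for the heavy chains. The call of STAT2 was lost without any 1 of the EWSR1::FLI1 high replicates 1, 2 and 3 (adjusted p = 0.0168, 0.0298 and 0.0235, limma), and that of IRF9 without EWSR1::FLI1 high replicate 1 or 2 (adjusted p = 0.0101 and 0.0147, limma).

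RFXAP and FCGRT fell. RFXAP, a subunit of the RFX complex that binds class I and class II promoters, measured 10.1, 8.26 and 8.91 FPKM in EWSR1::FLI1 high and 2.87, 3.24 and 2.79 FPKM in EWSR1::FLI1 low (log2 fold change -1.34, adjusted p = 0.000748, limma). FCGRT, the heavy chain of the neonatal Fc receptor, which pairs with beta-2 microglobulin but presents no peptide, measured 27.6, 29.1 and 37.7 FPKM against 10.4, 5.63 and 6.93 FPKM (log2 fold change -1.93, adjusted p = 0.000944, limma). For both genes all EWSR1::FLI1 low libraries lay well under the lowest EWSR1::FLI1 high library. The other RFX subunits, RFX5 and RFXANK, are named after their values were seen and were not called. The log2 fold change was -0.31 for RFX5 (adjusted p = 0.261, limma) and 0.34 for RFXANK (adjusted p = 0.227, limma).

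In the roles without a call, the gene with the highest mean FPKM was PSME2 (PA28 proteasome activator, log2 fold change 0.11), PSMB7 (constitutive proteasome, -0.35), TPP2 (peptidase, -0.22), CALR (calreticulin, a chaperone of the loading complex, 0.45), BCAP31 (export from the endoplasmic reticulum, -0.24) and JAK1 (interferon receptor kinase, -0.70). Of these, JAK1 came nearest to the limit, with 254, 251 and 269 FPKM in EWSR1::FLI1 high and 147, 162 and 166 FPKM in EWSR1::FLI1 low (adjusted p = 0.0129, limma). IRF1 and PSMB10 are named after their values were seen. IRF1, an interferon-induced activator of class I promoters, measured 2.23, 2.44 and 2.76 FPKM against 5.13, 16.9 and 8.58 FPKM (log2 fold change 1.55, adjusted p = 0.014, limma). PSMB10, a subunit of the immunoproteasome, measured 3.50, 4.12 and 4.36 FPKM against 6.15, 12.1 and 10.7 FPKM (log2 fold change 1.05, adjusted p = 0.0169, limma). In both, replicate 1 was the lowest EWSR1::FLI1 low library and still above every EWSR1::FLI1 high library.

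**Figure D5:**
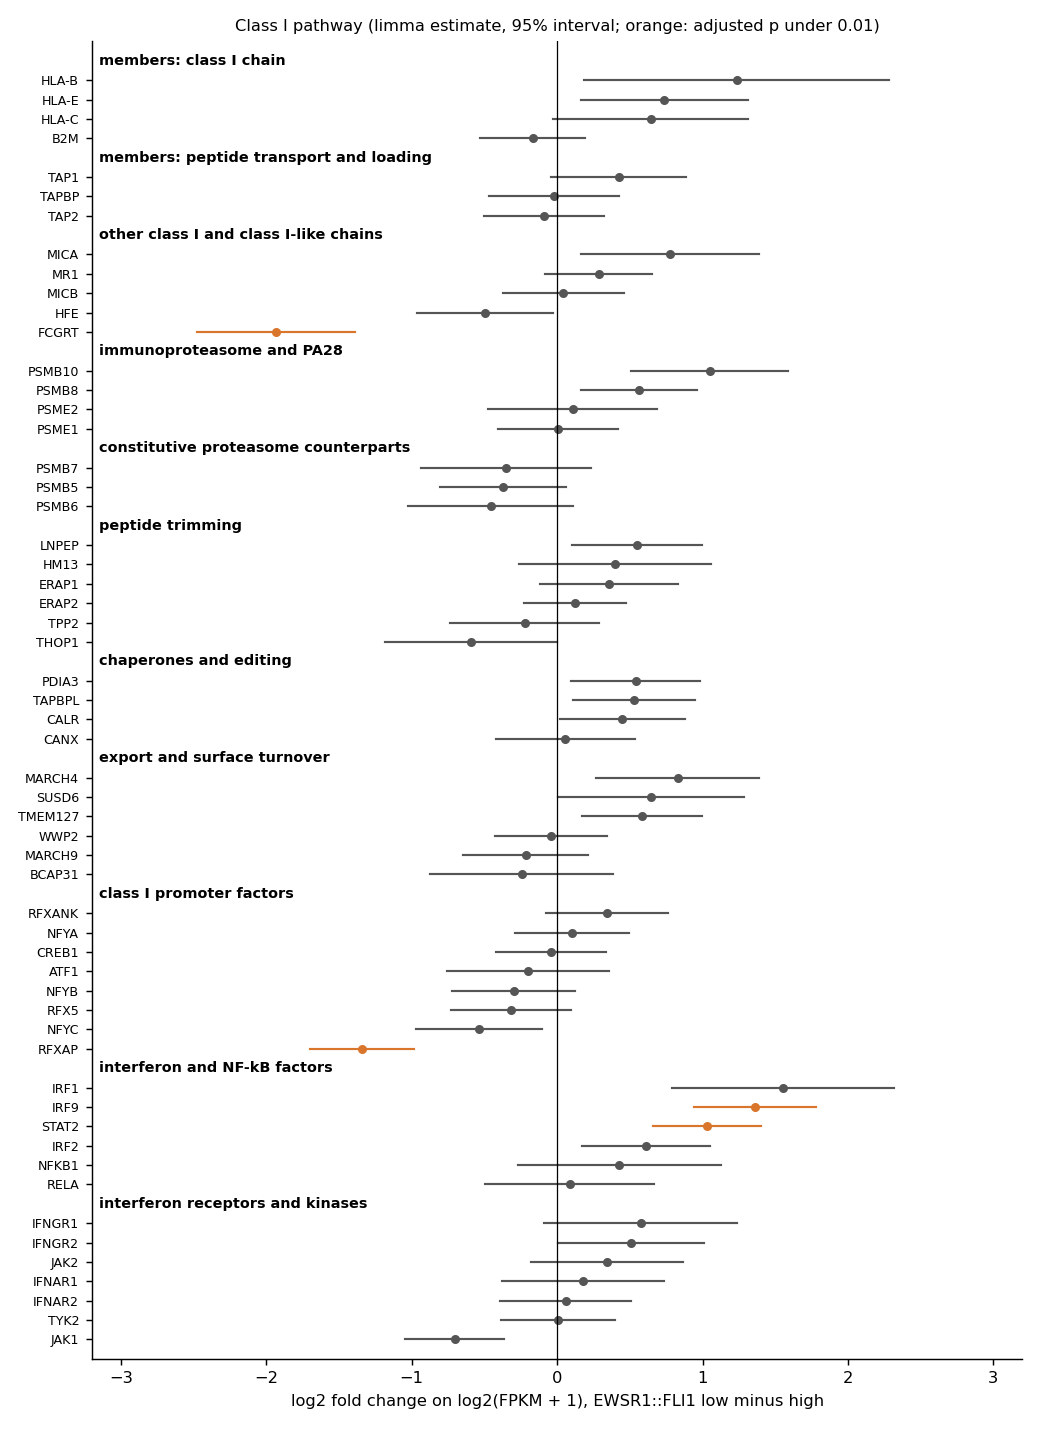
limma log2 fold changes on log2(FPKM + 1), EWSR1::FLI1 low minus high, with 95% intervals for the 7 members tested and 49 other class I pathway genes by role. IRF9, STAT2, RFXAP and FCGRT, in orange, passed an adjusted p of 0.01, and the interval of HLA-B runs from 0.19 to 2.29.

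Markers of other cell types were measured beside the members. All 12 class II genes were below the filter, with at most 0.511 FPKM as deposited in any library. On FPKM rescaled to transcript length, HLA-DRB1, HLA-DPA1, HLA-DMA, HLA-DMB and HLA-DOB passed the filter and were not called, with the lowest adjusted p for HLA-DMA (0.0514, limma). Of 9 leukocyte markers, 8 were below the filter, and CD68 was tested without a call. CD68, a lysosomal protein of macrophages that other cells also make, measured 5.39, 8.72 and 8.55 FPKM in EWSR1::FLI1 high and 4.67, 19.2 and 17.8 FPKM in EWSR1::FLI1 low, with replicate 1 lowest as for the members. The 9 markers summed to 7.95, 11.3 and 10.4 FPKM against 8.96, 21.4 and 19.3 FPKM, and without CD68 to 2.56, 2.58 and 1.83 FPKM against 4.29, 2.24 and 1.5 FPKM. The full sum was thus lowest, and the sum without CD68 highest, in replicate 1 among the EWSR1::FLI1 low libraries. Of 4 endothelial markers, KDR was called higher in EWSR1::FLI1 low (log2 fold change 2.52, adjusted p = 0.000108, limma), PECAM1 was not (0.66, adjusted p = 0.0333), and the summed level ran from 0.881 to 1.30 FPKM in EWSR1::FLI1 high and from 7.36 to 9.5 FPKM in EWSR1::FLI1 low. Most of that sum was KDR: without it the range was 0.614 to 0.806 FPKM in EWSR1::FLI1 high and 1.12 to 2.17 FPKM in EWSR1::FLI1 low. The part of these in the members' values was not tested.

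Heavy chain transcripts resemble each other, and the handling of reads that map to several places is not given in the sources used here. The 75-base stretches of the canonical transcripts were searched in GENCODE transcripts of genes elsewhere. Found there were 1.98% in HLA-C, 2.30% in HLA-E, 1.72% in TAPBP, 0.230% in TAP1 and 0.108% in TAP2, but none in HLA-B, HLA-F, B2M and NLRC5. Genes whose span overlaps that of the member, such as the gene without a symbol over TAP2, were left out of this search. The reference alleles were used for this, and the alleles of A673 were not analysed here.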

How the data were processed

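RNAseq of 6 samples was grouped by the sample labels. Per the labels, libraries were made with ScriptSeq v2 after rRNA depletion, and the submitters' processing notes name GRCh37, STAR 2.5.0b, Cufflinks 2.2.1, bedtools 2.17.0 and DESeq2 1.6.3. The authors deposited FPKM per gene symbol and library, replicates not pooled, and a table of their DESeq2 comparison. Of that table only the deposited mean signal per gene (mean of normalized counts) was used, to recover reads (100% of values whole within 0.1 reads). Its fold changes, errors, Wald statistics and p-values were not used. Genes whose mean FPKM reached 0.5 entered limma 3.58.1 (R 4.3.3, lmFit, eBayes with trend) on log2(FPKM + 1), a scale that understates changes of low genes, with Benjamini-Hochberg adjustment and an adjusted p limit of 0.01. limma was used since the values per library are FPKM, not counts. Reads were read against a floor of 3 reads, which covers counting error only. Gene positions and transcript lengths are from GENCODE v44 lifted to GRCh37, and promoter windows from RefSeq. Named genes are the 9 members, per pathway role up to 3 called genes with the largest change or else the most abundant gene, markers whose mean reached 0.5 FPKM, and the 5 genes most like and 5 most opposed to the members. Others are said to be named after their values were seen. Of the pathway list, 2 genes are not reported here. Members and lists were chosen with earlier results of these data known. Scripts were tested on simulated data with 50 genes per size of change, and the shares called are given with the test. Python 3.11.15, pandas 2.3.3, scipy 1.17.1 and matplotlib 3.10.9 were used. Alternatives covered pseudocount, filter, scaling, trend, replicate block, weights, limma-voom, limit, length and leaving out each library.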

Additional observations from a re-analysis of the deposited data

How the results depend on the processing

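Of 82 log2 fold changes of the 7 members tested, recomputed under alternatives other than leaving out a library, 74 kept their direction and their side of the limit. With sample quality weights, HLA-B (2.06), HLA-C (1.08), HLA-E (1.11) and TAP1 (0.68) passed it, so 4 members were called higher. TAPBP turned from -0.02 to 0.043 with median-ratio scaling, 0.28 with weights and 0.082 with a common sum per library, and TAP2 from -0.09 to 0.093 with weights, all without a call. With a common sum, the adjusted p was 0.0111 for HLA-E, 0.0385 for HLA-C and 0.0526 for HLA-B (limma). It was 0.141 or more for the other members tested. The common sum and the rescaled lengths were added after seeing the data.

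Leaving out 1 library at a time gave 0 to 3 members called higher, and the 3 only without EWSR1::FLI1 low replicate 1. The log2 fold change ranged from 0.74 to 1.82 for HLA-B, from 0.38 to 1.01 for HLA-C, from 0.55 to 0.99 for HLA-E, from 0.26 to 0.61 for TAP1, from -0.26 to -0.02 for B2M, from -0.21 to 0.04 for TAP2 and from -0.21 to 0.11 for TAPBP. TAP2 turned positive without EWSR1::FLI1 low replicate 1 (0.043), and TAPBP without that library (0.11), EWSR1::FLI1 high replicate 3 (0.04) or EWSR1::FLI1 low replicate 3 (0.03). The ratio of TAP1 to TAP2 kept a log2 difference of 1.5 to 1.68, and that of B2M to heavy chains one of -1.37 to -0.86.

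The 2 other pathway genes called higher became 0 without a filter, 5 with median-ratio scaling or an adjusted p under 0.05, 6 with quantile normalization, 4 with limma-voom, 19 with weights, 9 with a common sum, and 0 to 10 with 1 library left out. The 2 called lower became 0 without a filter and 4 with weights. Of all 15504 genes tested, 700 were called higher and 522 lower. These became 994 and 813 with median-ratio scaling, 945 and 784 with limma-voom, and 992 and 1000 with quantile normalization. They became 2488 and 2257 with weights, 1224 and 819 with a common sum, and 1530 and 1537 at an adjusted p under 0.05. Without a filter they were 89 and 35 of 26364 genes, and with 1 library left out 287 to 1452 and 156 to 726. Higher calls with weights were 19 of 49 other pathway genes and 16.0% of all genes. Without EWSR1::FLI1 low replicate 1 they were 10 of 49 and 9.37%. The causes were not tested.

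With the replicate number as a block, 0 members were called (HLA-B 1.24, adjusted p = 0.0165, limma), as without it. Called higher were 4 of the 49 other pathway genes tested and 916 of all 15504 genes tested. Deviations of same-numbered libraries correlated at 0.27, 0.09 and 0.12, and not every library correlated best with its own number, so the numbers were not taken as pairs.

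Depth limits HLA-F and NLRC5, which had as few as 7 reads in a library, and their log2 differences grew to 0.75 and 1.03 with a pseudocount of 0.1.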

Other observations

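Of 52 other pathway genes, 15 had every EWSR1::FLI1 low library above and 8 every one below the EWSR1::FLI1 high libraries, where 17.5% and 23.6% of all genes tested did. Among them were 3 genes for class I-like chains that did not pass the test, MICA, MR1 and HFE, named after their values were seen. MICA, a stress-induced ligand of the NKG2D receptor, measured 4.04, 3.73 and 3.64 FPKM in EWSR1::FLI1 high and 4.17, 9.29 and 9.51 FPKM in EWSR1::FLI1 low (log2 fold change 0.78, adjusted p = 0.0746, limma). HFE, a regulator of iron uptake that pairs with beta-2 microglobulin, measured 7.03, 5.53 and 5.98 FPKM against 4.0, 3.02 and 5.49 FPKM (log2 fold change -0.50, adjusted p = 0.126, limma). MR1, which presents vitamin B metabolites, measured 1.6, 1.59 and 1.25 FPKM against 1.96, 1.76 and 2.35 FPKM (log2 fold change 0.28, adjusted p = 0.25, limma). PSMB8, an immunoproteasome subunit encoded beside TAP1 and likewise named after its values were seen, measured 0.370, 0.425 and 0.638 FPKM against 0.896, 1.2 and 1.46 FPKM, with a log2 fold change of 0.56 as deposited (adjusted p = 0.0526, limma) and 1.19 on FPKM rescaled to transcript length (adjusted p = 0.0111, limma).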
